A study of Mus musculus with 13 samples.

Results

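The genes described here are 9 genes of cellular senescence and the p53 pathway, namely Cdkn1a, Cdkn2a, Cdkn2b, Cdkn2c, Trp53, Mdm2, Lmnb1, Il6 and Glb1, measured by RNA sequencing in mouse pancreas. They were chosen by name and matched by Entrez identifier, and each had 1 row among the 23366 genes of the table, so that all 9 entered every comparison without a filter. The 13 female mice were of the i4F-B strain, in which doxycycline switches on Oct4, Sox2, Klf4 and Myc (OSKM) from a cassette inserted in the Pparg gene. This cassette was present in all 3 groups. The original study describes it as ubiquitous but unevenly expressed between cell types. After injected doxycycline, SOX2 appeared broadly in acinar cells of the pancreas but not in most endocrine cells. The young group (4 mice, 13 weeks old) and the old group (5 mice, 55 weeks old) received no doxycycline. The old-OSKM group (4 mice) received doxycycline in sucrose-supplemented drinking water for 1 week from the age of 55 weeks, followed by 2 weeks of recovery, and was 58 weeks old per the labels. Doxycycline, sucrose, 3 weeks of age and induction of the cassette cannot be told apart in the comparison of old-OSKM with old mice.

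Cellular senescence is a lasting arrest of cell division that follows DNA damage, oncogene activation or telomere loss. The p53 protein, encoded by Trp53, activates Cdkn1a (p21), an inhibitor of cyclin-dependent kinases, while the Ink4 proteins encoded by Cdkn2a (p16Ink4a), Cdkn2b (p15Ink4b) and Cdkn2c (p18Ink4c) block CDK4 and CDK6 and thereby keep the retinoblastoma protein active. Mdm2 is both a target of p53 and the ligase that degrades it. Loss of lamin B1 (Lmnb1), secretion of interleukin 6 (Il6) and lysosomal beta-galactosidase activity (Glb1) are widely used signs of senescent cells. In the pancreas, p16Ink4a is best known for accumulating in beta cells with age.

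All values are the deposited log2 RPKM, a read density corrected for transcript length and library size, on a log2 scale and after quantile normalization across the 13 mice. RPKM is per length, so that different genes can be set side by side. The original study states a general number of reads per sample. Neither counts nor read totals per mouse come with the values, so the exact depth behind each value is unknown. Acinar cells dominated the tissue in every mouse, with 8 acinar markers summing to between 10162 and 10686 RPKM. Quantile normalization sets values by rank, and Ctrb1 and Amy2a5 had the same mean log2 RPKM in all 3 groups, 11.11 and 10.80. The narrow range of this sum therefore cannot show that acinar content was alike across mice. Mouse 4 of the old-OSKM group stood apart, since the SD of its deviations from the group mean over 8410 expressed genes was 0.39 on the log2 scale, against 0.11 to 0.21 in the other 12 mice. Many low genes took an almost constant value within a group, with a mean below -1 and all mice within 0.1 of each other, and this held for 4438 genes in young, 4598 in old and 426 in old-OSKM mice. Such values carry little information on differences between mice. The call rule asked for more than a 1.5-fold change together with an unadjusted limma p below 0.01, with all 3 groups in the fit, and both thresholds are those of the original study. Adjusted p-values are limma's by the Benjamini-Hochberg method, with all 23366 genes in the adjustment. A p for a single gene is from a two-sided exact permutation test over mice, whose smallest possible value is 0.0159 for 4 against 5 mice and 0.0286 for 4 against 4. Pathway genes were given this p only where they had been called in these same mice, so for them it is no separate support.

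The promoters of Cdkn1a and Cdkn2a are shown because they mark the p53 and the Ink4 arm of the pathway. Each line gives the 250 bases before an annotated start, 5′ to 3′ on the strand of the gene, from RefSeq on GRCm38.p6. Both starts of each gene are given. In the first Cdkn1a window (chr17:29090729-29090978, plus strand) the capitals mark a 20-base element centred on the motif CATGNNNNNNCATG. This motif is a form of the core that p53 binds, and not the full p53 consensus. In the second Cdkn1a window (chr17:29093519-29093768, plus strand) and in Cdkn2a the capitals mark GGGCGG on either strand, the GC box. The first Cdkn2a window lies before the start of the p19Arf transcript (chr4:89294620-89294869, minus strand) and the second before that of p16Ink4a (chr4:89282193-89282442, minus strand).
Cdkn1a, first start: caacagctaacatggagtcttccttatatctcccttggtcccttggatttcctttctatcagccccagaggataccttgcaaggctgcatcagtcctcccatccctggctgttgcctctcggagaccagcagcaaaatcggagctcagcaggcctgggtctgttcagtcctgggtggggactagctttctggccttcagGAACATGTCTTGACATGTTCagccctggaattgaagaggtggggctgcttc
Cdkn1a, second start: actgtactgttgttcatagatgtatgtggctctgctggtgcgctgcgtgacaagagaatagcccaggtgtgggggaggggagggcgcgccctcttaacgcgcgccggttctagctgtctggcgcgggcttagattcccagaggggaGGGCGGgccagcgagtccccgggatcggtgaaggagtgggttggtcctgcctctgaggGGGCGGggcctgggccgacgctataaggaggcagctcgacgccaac
Cdkn2a, p19Arf start: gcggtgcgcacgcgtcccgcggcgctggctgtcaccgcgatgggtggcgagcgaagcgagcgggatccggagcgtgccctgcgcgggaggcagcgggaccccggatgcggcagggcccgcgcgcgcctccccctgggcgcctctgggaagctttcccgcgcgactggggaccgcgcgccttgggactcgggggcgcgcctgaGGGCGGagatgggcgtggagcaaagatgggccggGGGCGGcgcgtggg
Cdkn2a, p16Ink4a start: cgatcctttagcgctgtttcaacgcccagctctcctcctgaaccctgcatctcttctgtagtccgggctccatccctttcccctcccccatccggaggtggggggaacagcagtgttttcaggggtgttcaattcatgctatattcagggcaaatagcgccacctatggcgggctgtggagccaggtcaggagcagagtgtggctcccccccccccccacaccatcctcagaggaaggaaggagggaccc
The p53 core motif occurred once in the first Cdkn1a window, from chr17:29090931 to 29090944, within the capitalised element from 29090928 to 29090947. It was found in neither the second Cdkn1a window nor the 37 windows given for 24 other p53 targets, and in 0.49% of 32851 windows of the same length over all genes. The full p53 consensus, 2 half-sites without a gap, matched 0 of 11 windows of the members, the capitalised element included. It also matched 0 of the 37 windows and 0.00913% of all windows. Searches of 250 bases for these patterns cannot show that a target lacks a p53 site. The GC box occurred at 2 places before the second Cdkn1a start, at 2 before the p19Arf start and in 32.7% of all windows, searched on both strands and without overlap between the motifs. It was not found in these 250 bases before the p16Ink4a start. The base composition of the Cdkn2a windows also differed, with 78.4% G or C before the p19Arf start and 60.0% before the p16Ink4a start. Windows were given for 8 of the 9 genes, all but Lmnb1.

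The 9 genes covered a wide range of levels in the pancreas. Over the 13 mice, Glb1 had the highest mean log2 RPKM at 1.72, followed by Cdkn1a at 1.53, Mdm2 at 1.17 and Trp53 at 0.70. Lmnb1 and Cdkn2c were lower, with mean log2 RPKM of -0.20 and -0.66. The 3 lowest were Cdkn2b at -1.77, Cdkn2a at -2.61 and Il6 at -2.95. Neighbours in this order were not always separated: Glb1 lay above Cdkn1a in 6 of 13 mice, Cdkn1a above Mdm2 in 9 and Cdkn2a above Il6 in 9. Trp53 lay above Lmnb1, Lmnb1 above Cdkn2c and Cdkn2c above Cdkn2b in all 13 mice. Among all genes of the table, the mean level of Glb1 was at percentile 89.4 and that of Cdkn2a at percentile 33.9.

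**Figure D1:**
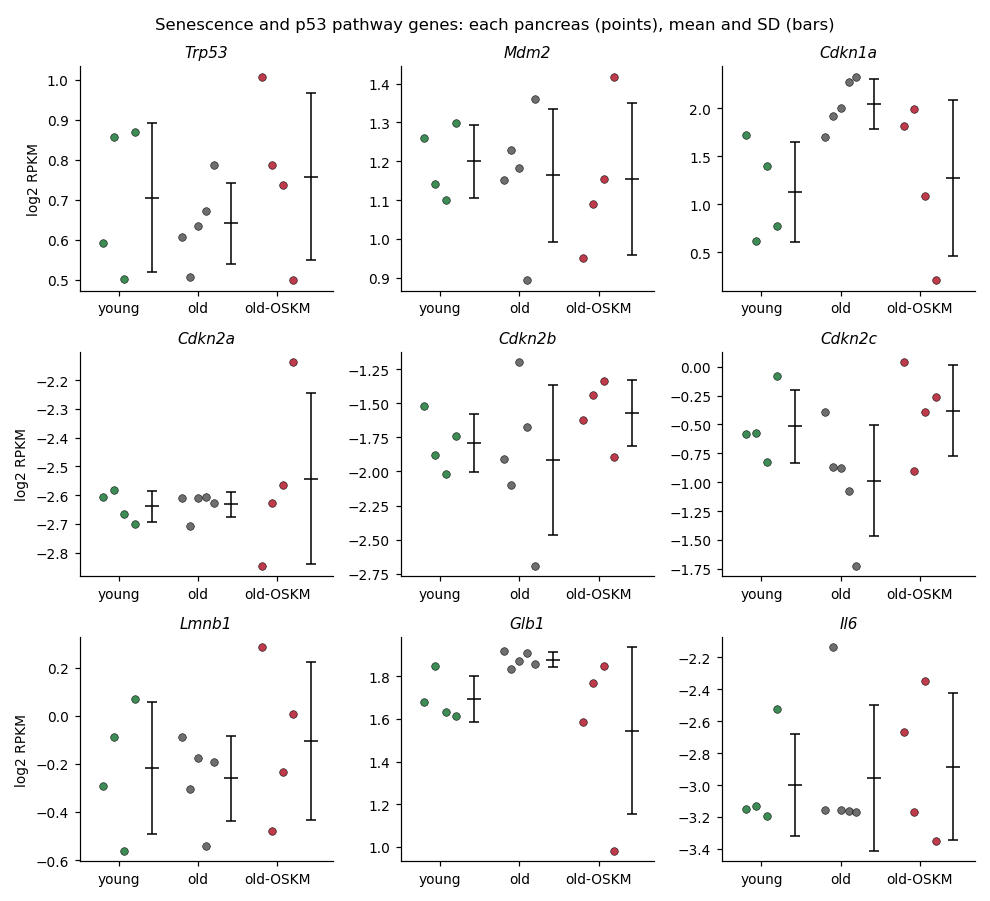
Log2 RPKM of the 9 genes in each pancreas (points; vertical axis, with its own range in each panel) by group (horizontal axis: young, 4 mice; old, 5 mice; old-OSKM, 4 mice), with the mean and SD as bars. Cdkn1a had a mean of 1.13 in young, 2.05 in old and 1.28 in old-OSKM mice, while Trp53 and Mdm2 overlapped throughout and Cdkn2a sat near -2.6 in all young and old mice.

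None of the 9 genes passed the call rule in any of the 3 comparisons, and none had groups whose values did not overlap. Between old and young mice, 0 of 9 genes were called by limma, against 0.886% of all genes, and 1 of 9 (Cdkn1a) had a raw p under 0.05, against 5.52%, of which 3.0% were higher and 2.52% lower. Between old-OSKM and old mice, 0 of 9 genes were called by limma, against 0.753% of all genes, and 3 of 9 had a raw p under 0.05, against 8.07% of all genes, 3.98% higher and 4.08% lower. These 3 were Cdkn1a and Glb1, lower in old-OSKM mice, and Cdkn2c, higher in old-OSKM mice. Between old-OSKM and young mice, 0 of 9 genes were called by limma, against 0.625% of all genes, and 0 of 9 had a raw p under 0.05, against 5.07%, 2.91% higher and 2.16% lower. After adjustment in limma, 0 of the 9 genes had a p under 0.05 in any comparison, against 0.0813%, 0.00428% and 0.0428% of all genes in the same order. The shares of all genes with groups that did not overlap were 2.71%, 1.73% and 1.9%. The old mice enter the first 2 comparisons, so that those comparisons are not independent of each other.

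**Figure D2:**
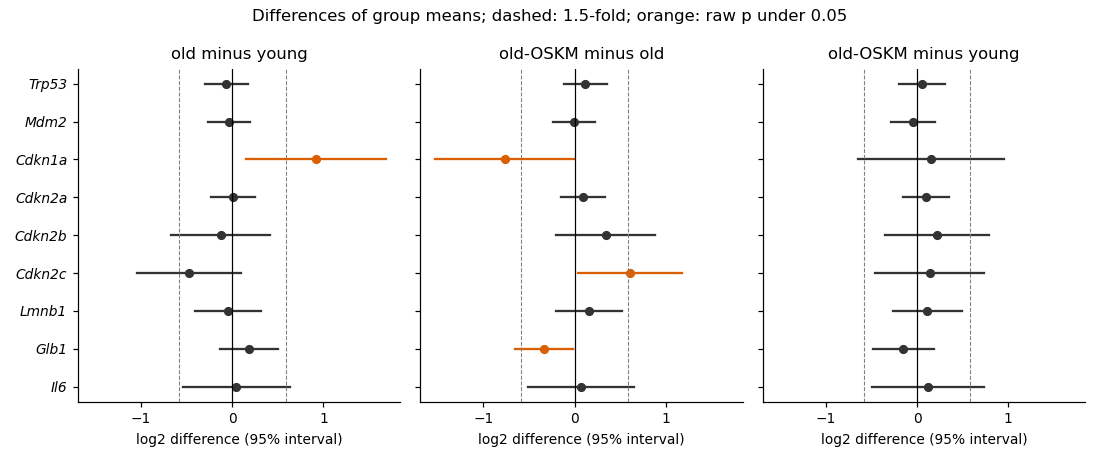
Log2 difference of group means for the 9 genes (vertical axis) in the 3 comparisons, with 95% intervals from limma (horizontal axis), dashed lines at a fold change of 1.5 and orange for a raw p under 0.05. Cdkn1a was 0.92 higher in old than in young mice and 0.77 lower in old-OSKM than in old mice, and the intervals of Trp53 and Mdm2 stayed inside the dashed lines in all 3 comparisons.

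Cdkn1a (Entrez 12575, chr17:29090979-29100722), the p21 inhibitor and the best known target of p53, showed the largest difference among the 9 genes with age. Its log2 RPKM was 1.72, 0.62, 1.40 and 0.78 in the young mice and 1.71, 1.92, 2.00, 2.28 and 2.33 in the old mice. Of the old mice, 4 lay above every young mouse, and the remaining 1 was just below the highest young mouse. The means were 1.13 ± 0.52 (SD, n = 4) and 2.05 ± 0.26 (SD, n = 5), a difference of 0.92 (SE 0.35) or 1.89-fold, with a 95% interval from 1.11 to 3.21-fold. The exact permutation test gave p = 0.0317, but the difference did not hold after adjustment over all genes (limma, adjusted p = 0.761). The same difference passed the call rule when old-OSKM mouse 4 was left out and when only young and old mice were fitted. The old-OSKM mice enter the estimate of the spread and had the largest SD of the 3 groups. In pancreas as a whole, more Cdkn1a in the same cells and more cells that express it cannot be told apart.

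In the old-OSKM mice the log2 RPKM of Cdkn1a was 1.82, 1.99, 1.09 and 0.21. The first 2 of these mice lay within the range of the old mice and the other 2 lay below it. The mean of 1.28 ± 0.81 (SD, n = 4) was 0.77 lower than in old mice (SE 0.35), which is 1.70-fold lower. This passed an unadjusted p of 0.05 in limma, but not the exact permutation test (p = 0.0952) or the adjustment in limma (adjusted p = 0.547). Without old-OSKM mouse 4, the lowest of all 13 mice for Cdkn1a, the difference was -0.41, and a raw p under 0.05 in limma was kept in 5 of the 13 fits without 1 mouse. Compared with young mice, the old-OSKM mean was 0.15 higher, with a 95% interval from -0.65 to 0.96, which does not show that the groups were alike. The annotated gene AC167363.2 overlaps Cdkn1a on the other strand, and the library kit does not mark strand, so reads from both cannot be told apart.

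The upstream part of the pathway differed little. Trp53 (Entrez 22059, chr11:69580348-69591873), which encodes p53, had a log2 RPKM of 0.59, 0.86, 0.50 and 0.87 in young mice, 0.61, 0.51, 0.63, 0.67 and 0.79 in old mice and 1.01, 0.79, 0.74 and 0.50 in old-OSKM mice. All 3 groups overlapped. The old mean was 0.06 below the young mean, with a 95% interval from -0.30 to 0.17, and the old-OSKM mean was 0.12 above the old mean, with an interval from -0.12 to 0.36 (exact permutation p = 0.349). The activity of p53 is set mostly by the stability of the protein, which these data did not measure.

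Mdm2 (Entrez 17246, chr10:117688875-117710758), the p53 ligase and target, had the smallest SD of the 9 genes over the 13 mice, at 0.15 on the log2 scale. Its log2 RPKM was 1.26, 1.14, 1.10 and 1.30 in young mice, 1.15, 1.23, 1.18, 0.89 and 1.36 in old mice and 0.95, 1.09, 1.16 and 1.42 in old-OSKM mice. The old group held both a value below and a value above every young mouse. The differences were -0.04 for old minus young (95% interval -0.27 to 0.19) and -0.0098 for old-OSKM minus old (95% interval -0.24 to 0.22), so that changes of 1.5-fold lay outside both intervals. Where the mean of Cdkn1a was 1.89-fold higher in old than in young mice, that of Mdm2 was 1.03-fold lower, and whether these differences differed from each other was not tested.

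Of the Ink4 genes, Cdkn2a and Cdkn2b were low in every group, while the mean level of Cdkn2c was at percentile 54.6 of all genes. Cdkn2a (Entrez 12578, chr4:89274473-89294619) encodes p16Ink4a and, from its own first exon, p19Arf, which shields p53 from Mdm2. The first exons lie at chr4:89281986-89282192 and chr4:89294334-89294653 in the annotation and share the second exon at chr4:89276645-89276985, so that the single row of Cdkn2a sums both products. Its log2 RPKM was -2.61, -2.58, -2.67 and -2.70 in young mice, and -2.61, -2.71, -2.61, -2.61 and -2.63 in old mice. These 9 values lay between -2.71 and -2.58, in the part of the scale where many genes take a nearly constant value. In the old-OSKM mice the log2 RPKM was -2.85, -2.63, -2.56 and -2.14, and the lowest and the highest of all 13 mice were both in this group. The highest was old-OSKM mouse 4. The old minus young difference was 0.0069, with a 95% interval from -0.23 to 0.25, and the old-OSKM minus old difference was 0.09, with an interval from -0.15 to 0.33. At these levels an age-related difference in p16Ink4a was not detectable in whole pancreas.

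Cdkn2b (Entrez 12579, chr4:89306289-89311032), which lies 11645 bases from Cdkn2a and encodes p15Ink4b, had a log2 RPKM of -1.52, -1.88, -2.02 and -1.74 in young mice, -1.91, -2.10, -1.20, -1.67 and -2.69 in old mice and -1.63, -1.44, -1.34 and -1.89 in old-OSKM mice. The old mice held both the lowest and the highest value. The differences were -0.12 for old minus young (SE 0.25) and 0.34 for old-OSKM minus old (SE 0.25, exact permutation p = 0.286), both within the spread between mice.

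Cdkn2c (Entrez 12580, chr4:109660876-109666756), which encodes p18Ink4c, had differences of the opposite sign to those of Cdkn1a in the comparisons of old with young and of old-OSKM with old mice. Its log2 RPKM was -0.59, -0.58, -0.83 and -0.08 in young mice, -0.39, -0.87, -0.88, -1.08 and -1.72 in old mice and 0.04, -0.90, -0.40 and -0.26 in old-OSKM mice. Of the old mice, 4 lay below all young mice, and 3 of 4 old-OSKM mice lay above 4 of the 5 old mice. The old minus young difference was -0.47 (SE 0.26, exact permutation p = 0.127), and the old-OSKM minus old difference was 0.61 (SE 0.26), or 1.52-fold higher, with an exact permutation p = 0.111 and an adjusted p of 0.547 in limma. Without old mouse 5, the lowest, these differences were -0.29 and 0.42, neither with a raw p under 0.05 in limma. For the second difference such a p was kept in 8 of the 13 fits without 1 mouse and lost without old-OSKM mouse 4, where the difference was 0.57. The old-OSKM and young means differed by 0.14, with a 95% interval from -0.46 to 0.74.

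Lmnb1 (Entrez 16906, chromosome 18), which encodes lamin B1 of the nuclear lamina, did not differ beyond the spread between mice. Its log2 RPKM ranged from -0.56 to 0.07 in young, from -0.54 to -0.09 in old and from -0.48 to 0.29 in old-OSKM mice, with means of -0.22, -0.26 and -0.11. The old minus young difference was -0.04, with a 95% interval from -0.40 to 0.32, and the old-OSKM minus old difference was 0.16, with an interval from -0.21 to 0.52.

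Glb1 (Entrez 12091, chr9:114401078-114474379), the enzyme behind the beta-galactosidase stain for senescent cells, was tightly grouped in old mice. Its log2 RPKM was 1.68, 1.85, 1.63 and 1.62 in young mice, 1.92, 1.83, 1.87, 1.91 and 1.86 in old mice and 1.58, 1.77, 1.85 and 0.98 in old-OSKM mice. Of the young mice, 3 lay below all old mice, and the remaining 1 lay within the old range. The old mean was 0.18 higher than the young mean (SE 0.14, exact permutation p = 0.0317), a difference without a raw p under 0.05 in limma, whose SE also takes in the wider old-OSKM group. The old-OSKM mean was 0.33 lower than the old mean (SE 0.14, exact permutation p = 0.0317), with an adjusted p of 0.547 in limma. The size of the last difference rested on old-OSKM mouse 4, without which it was -0.15, and a raw p under 0.05 in limma was kept in 6 of the 13 fits without 1 mouse. The gene Tmppe overlaps Glb1 on the same strand.

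Il6 (Entrez 16193, chr5:30013114-30019975), the cytokine of the senescence-associated secretory phenotype, was the lowest of the 9 genes. Its log2 RPKM was -3.15, -3.13, -3.20 and -2.52 in young mice, -3.16, -2.14, -3.16, -3.16 and -3.17 in old mice and -2.67, -3.17, -2.35 and -3.35 in old-OSKM mice. All but 1 young and 1 old mouse fell between -3.20 and -3.13, while the old-OSKM mice were spread on both sides. The differences were 0.05 for old minus young (SE 0.27) and 0.07 for old-OSKM minus old (SE 0.27). Most young and old values lay in the part of the scale where many genes take a nearly constant value. At these levels, and beside the spread of the remaining mice, a difference in Il6 was not detectable.

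Old-OSKM mouse 4 was at an extreme for 6 of the 9 genes. It had the lowest of the 13 values for Cdkn1a, Trp53, Il6 and Glb1 and the highest for Cdkn2a and Mdm2. Among 3788 genes that were nearly constant and low in both young and old mice, 18.8% lay within 0.1 of the old mean in this mouse, 77.0% in old-OSKM mouse 1 and 98.6% in each of the other 2 old-OSKM mice. Without it, the old-OSKM minus old difference of Trp53 was 0.20 in place of 0.12, that of Mdm2 -0.098 in place of -0.0098 and that of Il6 0.23 in place of 0.07. The difference of Cdkn2a turned from 0.09 to -0.046. None of these had a raw p under 0.05 in limma with or without the mouse.

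The other genes of the pathway were taken from 8 lists with 163 genes in all. Between old and young mice, 2 of the 163 were called higher and 3 lower, against 0.449% and 0.437% of all genes. With a raw p under 0.05 there were 7 higher and 12 lower, against 3.0% and 2.52% of all genes. Between old-OSKM and old mice, 3 were called higher and 0 lower by limma, against 0.582% and 0.171% of all genes. With a raw p under 0.05 there were 13 higher and 3 lower in that comparison, against 3.98% and 4.08% of all genes. Between old-OSKM and young mice, 1 was called higher and 0 lower by limma, against 0.454% and 0.171%, with 11 higher and 5 lower at a raw p under 0.05, against 2.91% and 2.16%. None of the 163 had an adjusted p under 0.05 in any comparison.

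**Figure D3:**
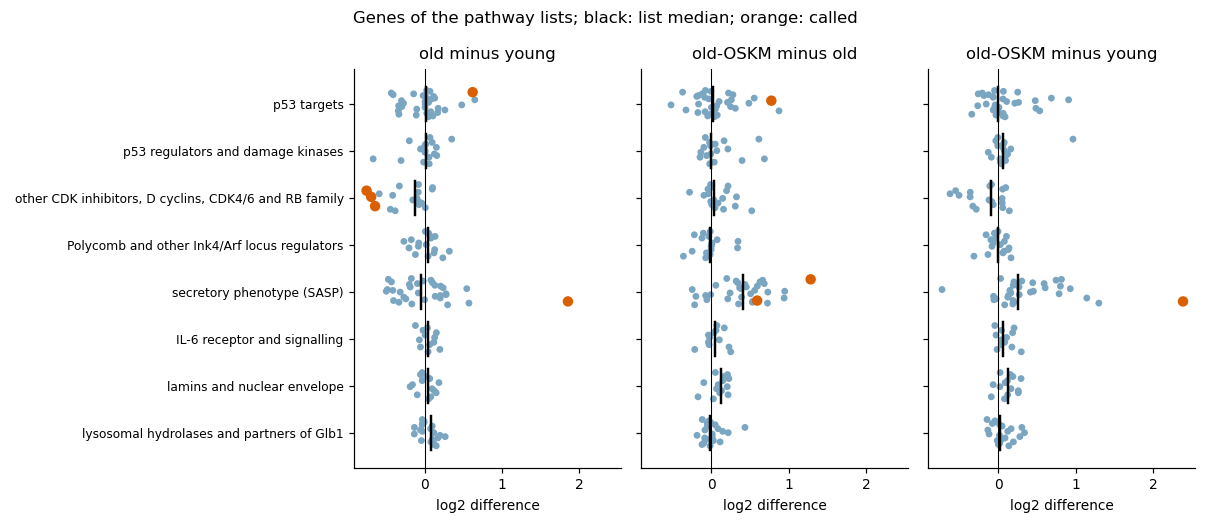
Log2 difference of each gene (points; horizontal axis) of the 8 pathway lists (vertical axis) in the 3 comparisons, with black lines at the list medians and orange for called genes. In the comparison of old-OSKM with old mice, the median of the secretory phenotype list was 0.41, against -0.04 over all genes.

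Of 32 other p53 targets, 1 rose with age by the call rule, against 0.449% of all genes. Trp53inp1, a p53-induced nuclear protein that acts in stress responses and autophagy and is well expressed in pancreas, had a log2 RPKM of 1.94, 1.93, 2.04 and 2.13 in young mice, 2.44, 2.68, 2.71, 2.44 and 2.90 in old mice and 2.50, 2.35, 1.92 and 2.26 in old-OSKM mice. The young and old groups did not overlap. The old mean was 0.62 higher (SE 0.12, exact permutation p = 0.0159, adjusted p = 0.131 in limma), and the call was lost only without old mouse 5 among the 13 fits that each left out 1 mouse, where the difference was 0.56. The old-OSKM mean was 0.37 lower than the old mean (SE 0.12, exact permutation p = 0.0476), which missed both thresholds of the call rule.

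No other gene of this list was called in the comparison of old with young mice. The median of the list was 0.02 between old and young mice and 0.02 between old-OSKM and old mice, against 0.0012 and -0.04 over all genes. Gdf15, a stress cytokine and p53 target named after its values were seen, was 0.48 higher in old than in young mice and 0.52 lower in old-OSKM than in old mice, neither with a raw p under 0.05 in limma. With a raw p under 0.05, Fas, a death receptor, was 0.29 lower in old mice, and Steap3, a metalloreductase, was 0.41 lower. Bbc3, the apoptosis inducer Puma, was 0.33 lower in old mice and is named after its value was seen. Pltp, a phospholipid transfer protein, rose by 0.77 in old-OSKM compared with old mice (SE 0.20, exact permutation p = 0.0159), with log2 RPKM of 0.98, 0.65, 0.67, 1.26 and 0.96 in old and 2.04, 1.33, 1.31 and 2.03 in old-OSKM mice, which did not overlap. Phlda3 (0.48) and Ckap2 (0.87), also named after their values were seen, and Fas (0.25) were higher in old-OSKM mice at a raw p under 0.05.

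Of 17 regulators of p53 and kinases of the damage response, none was called in the 3 comparisons by limma. With a raw p under 0.05, Chek2, the checkpoint kinase that phosphorylates p53, was 0.67 lower in old than in young mice and 0.68 higher in old-OSKM than in old mice. Crebbp, an acetyltransferase that acts on p53, was 0.16 higher in old mice, with groups that did not overlap. Chek2 was a low gene, with a mean log2 RPKM of -1.43 in young, -2.09 in old and -1.41 in old-OSKM mice. The median of the list was 0.02 and -0.0085 in these comparisons.

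Of 18 other CDK inhibitors, cyclins, kinases, RB family members and E2F factors, 3 fell with age by the call rule, against 0.437% of all genes. Ccne1 (cyclin E1), which drives entry into S phase, fell by 0.64 (SE 0.12, exact permutation p = 0.0159, adjusted p = 0.118 in limma), from -1.88, -1.81, -1.79 and -1.68 in young mice to -2.61, -2.04, -2.28, -2.60 and -2.63 in old mice, with no overlap. Cdkn1c (p57), another inhibitor of the family of Cdkn1a, fell by 0.69 (SE 0.21, exact permutation p = 0.0159), and its groups did not overlap either. The activator E2f3 fell by 0.75 (SE 0.23, exact permutation p = 0.0317), with groups that overlapped. It was a low gene, with a mean log2 RPKM of -1.46 in young and -2.21 in old mice. The calls of Cdkn1c and E2f3 were each lost in 6 of the 13 fits that left out 1 mouse, and that of Ccne1 in none. The call of Ccne1, a low gene, was lost in 3 of 8 other settings. These were pseudocounts of 1 and 0.1 and mice 609 to 621 alone. That of Cdkn1c was lost in 2 of 9 other settings and that of E2f3 in 4 of 8. In this list 15 of 18 genes were lower in old mice, with a median of -0.12 against 0.0012 over all genes. All 6 genes with a raw p under 0.05 were lower, against 2.52% of all genes. They also included Ccnd2 (-0.44) and, named after their values were seen, E2f1 (-0.59) and Cdkn2d (-0.41), the p19Ink4d inhibitor. In old-OSKM compared with old mice, Ccne1 was 0.31 and Ccnd1 0.52 higher at a raw p under 0.05, and none of the list was called by limma. The summed level of 8 proliferation markers ranged from 5.14 to 6.03 RPKM in young, from 4.75 to 5.97 in old and from 4.52 to 9.60 in old-OSKM mice, and its part in these results was not tested.

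**Figure D4:**
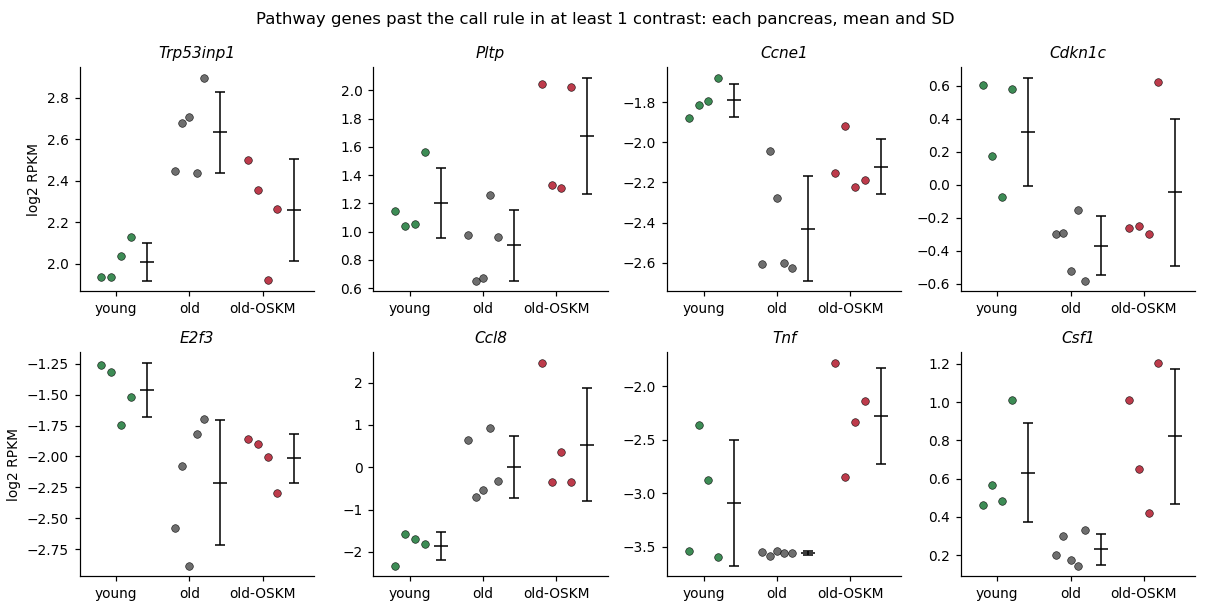
Log2 RPKM (vertical axis, own range in each panel) of the 8 pathway genes called in at least 1 comparison, by mouse (points) and group (horizontal axis: young, 4 mice; old, 5 mice; old-OSKM, 4 mice), with mean and SD as bars. Trp53inp1 rose from a mean of 2.01 in young to 2.63 in old mice, and the 5 old mice share almost 1 value for Tnf, near -3.56.

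The regulators of the Ink4 and Arf locus changed little. Of 17 Polycomb proteins and transcription factors of the locus, none was called by limma. With a raw p under 0.05, Bmi1, the Polycomb protein that represses Cdkn2a, was 0.24 higher in old than in young mice (SE 0.07, 1.18-fold), and Eed was 0.13 higher. No gene of this list had a raw p under 0.05 between old-OSKM and old mice.

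The secretory phenotype list had the largest median difference of the 8 lists between old-OSKM and old mice. Of its 32 genes, which leave out Il6, 26 were higher and 6 lower in old-OSKM than in old mice, and the median difference was 0.41, against -0.04 over all genes. By the call rule, 2 of them rose, against 0.582% of all genes. Csf1, the growth factor of macrophages, had a log2 RPKM of 0.46, 0.57, 0.48 and 1.01 in young mice, 0.20, 0.30, 0.17, 0.14 and 0.33 in old mice and 1.01, 0.65, 0.42 and 1.21 in old-OSKM mice. It rose by 0.59 between old and old-OSKM mice (SE 0.16, exact permutation p = 0.0159), with groups that did not overlap, and the call was lost in 5 of the 13 fits that left out 1 mouse. Tnf had a log2 RPKM between -3.59 and -3.54 in all 5 old mice, a nearly constant low value, and of -1.78, -2.85, -2.34 and -2.14 in old-OSKM mice, a rise of 1.28 (SE 0.26, exact permutation p = 0.0159). Of the young mice, 2 were also above the old mice, at -2.36 and -2.88. With a raw p under 0.05, Igfbp4 was 0.73 higher in old-OSKM mice, as were Igfbp5 (0.95) and Cxcl12 (0.39), named after their values were seen.

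With age the same list did not move together. Its median was -0.05 between old and young mice, and 15 genes were higher and 17 lower. By the call rule 1 rose, against 0.449% of all genes. For Csf1 the old minus young difference was -0.40, and the groups did not overlap (SE 0.16, exact permutation p = 0.0159), but it missed the call rule, with an adjusted p of 0.78 in limma. The called gene was Ccl8, a monocyte chemokine, with a log2 RPKM of -2.33, -1.57, -1.69 and -1.82 in young mice, 0.65, -0.70, -0.55, 0.92 and -0.31 in old mice and 2.48, -0.35, 0.36 and -0.35 in old-OSKM mice. Every old and old-OSKM mouse lay above every young mouse. The difference was 1.86 between old and young mice (SE 0.56, exact permutation p = 0.0159, adjusted p = 0.551 in limma) and 2.39 between old-OSKM and young mice (SE 0.59, exact permutation p = 0.0286). The call between old and young mice was lost in 6 of the 13 fits that left out 1 mouse. It was also lost in 4 of 9 other settings. These were pseudocounts of 1 and 0.1, the covariate for the run of sample identifiers and mice 609 to 621 alone. The call between old-OSKM and young mice was lost in 2 of 9 other settings, a pseudocount of 1 and mice 609 to 621 alone.

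Markers of other cells also differed between the groups, in both directions. The summed level of 7 macrophage markers ranged from 10.8 to 17.3 RPKM in young, from 8.08 to 13.6 in old and from 11.99 to 31.4 in old-OSKM mice, and 5 of the 7 were higher in old-OSKM than in old mice at a raw p under 0.05, against 3.98% of all genes. The sum of 8 fibroblast and stellate cell markers ranged from 27.5 to 54.7 RPKM in young, from 20.8 to 26.9 in old and from 27.1 to 73.7 in old-OSKM mice. By the call rule, 2 of these markers (Col1a1 and Col1a2) were higher in old-OSKM than in old mice, against 0.582% of all genes. The old minus young difference was negative for all 8 markers. Of these, Col1a1 (-0.93) and Col3a1 (-1.04) met the call rule, against 0.437% of all genes called lower. Old-OSKM minus young was -0.052 for Col1a1, 0.056 for Col1a2 and -0.13 for Col3a1. In that comparison 0 of the 8 had a raw p under 0.05. The old mice are shared between the comparisons with young and with old-OSKM mice. B and plasma cell markers, 5 in number, summed to between 0.725 and 2.41 RPKM in young, 2.49 and 6.86 in old and 3.35 and 11.9 in old-OSKM mice. The 6 T cell markers summed to between 0.695 and 1.01 RPKM in young, 0.924 and 1.78 in old and 1.01 and 6.11 in old-OSKM mice. All 6 stayed below a log2 RPKM of -1 in every young and old mouse, and each exceeded it in at least 1 old-OSKM mouse. Of 7 adipocyte markers, 6 were higher in old-OSKM than in old mice, with a median difference of 1.14. At a raw p under 0.05, 3 of the 7 were higher, against 3.98% of all genes. The sum of the 7 ranged from 8.04 to 15.5 RPKM in young, from 8.52 to 11.8 in old and from 8.72 to 18.7 in old-OSKM mice. Plin1, the lipid droplet protein perilipin, rose 2.89-fold by the call rule, with groups that overlapped. All 8 islet markers were lower in old-OSKM than in old mice, with a median difference of -0.51. Of these 8, 0 had a raw p under 0.05, against 4.08% of all genes lower. All 7 endothelial markers (median 0.31) and all 8 proliferation markers (median 0.67) were higher. Duct and erythroid markers were mixed, with 4 of 7 and 3 of 6 higher. The part of these cells in the secretory results was not tested.

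The partners of Il6, Lmnb1 and Glb1 gave no call, and those named next had a raw p under 0.05 in limma unless stated otherwise. Of 12 genes of interleukin 6 signalling, none was called by limma, and Il6ra, the receptor subunit that binds the cytokine, was 0.22 lower in old-OSKM than in old mice. Rela, a subunit of NF-kappaB, was 0.15 higher in old than in young mice. Of 14 genes of the lamina and nuclear envelope, none was called, and Lmna was 0.19 lower in old than in young mice and 0.20 higher in old-OSKM than in old mice. Emd, which encodes emerin, was 0.17 lower in old-OSKM mice. Of 21 lysosomal hydrolases and partners of Glb1, none was called by limma, and Gaa, the acid glucosidase, was 0.17 higher in old than in young mice. Ctsa, the cathepsin that binds Glb1 in the lysosome, differed by 0.12 between old and young mice and did not reach that threshold.

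The genes whose pattern was most like that of a member were found over the 13 mice among 8407 genes with a mean log2 RPKM of 0 or more. For Cdkn1a these were Ints12 (Pearson r = 0.944, Spearman rho = 0.874), Ldha (r = 0.892, rho = 0.709) and Cd59a (r = 0.89, rho = 0.846). Without the 2 mice farthest from the median of Cdkn1a, old-OSKM mouse 4 and young mouse 2, the r values were 0.915, 0.797 and 0.849. For Trp53 the closest were Capzb (r = 0.87), Ctsd (r = 0.867) and Dars (r = 0.836), with r of 0.773, 0.784 and 0.838 without old-OSKM mouse 1 and young mouse 4. For Mdm2 they were Zfp146 (r = 0.939), Pigm (r = 0.905) and Cxadr (r = 0.9), with r of 0.884, 0.876 and 0.837 without old mouse 4 and old-OSKM mouse 4. For Glb1 they were Rpl29 (r = 0.97), Gm4262 (r = 0.969) and Acat3 (r = 0.969), which fell to 0.892, 0.875 and 0.791 without old-OSKM mice 4 and 1. No member was among the 3 closest genes of another. These r values are high partly by selection, since the genes were picked as the closest of 8407. The points share their libraries and groups, and the values describe these mice only.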

How the data were processed

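Pancreas RNA of 13 mice was depleted of rRNA, made into libraries with a kit that does not mark strand, and sequenced with paired ends, 1 library per mouse. Per the labels and methods, the authors aligned reads to mm10 with STAR 2.3.0e, estimated RPKM per isoform with Casper, summed it per Entrez gene, took the log2 and applied quantile normalization, and the deposited values are these log2 RPKM. Reads mapping to 5 or more places had been left out. Sorted values differed between mice by at most 0.0116, as quantile normalization in the last step would leave them. Whether the correction by read totals that the methods describe was made before that step cannot be told from the values. Depth per mouse is not given, so counting error is unknown.

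Groups were taken from the sample labels, which describe separate mice. All 23366 genes were fitted as deposited, without filter or pseudocount, with limma 3.58.1 in R 4.3.3 (lmFit, contrasts.fit, eBayes), 3 groups and no covariate, two-sided. The fit was tested on simulated data. Symbols and positions came from RefSeq on GRCm38.p6 (mm10) and overlaps from GENCODE on GRCm38, and 23273 genes had a symbol. The members and the 8 pathway and 11 marker lists were chosen with earlier results of these data known. Named list genes were those called in any comparison and the 3 of smallest raw p in old minus young and in old-OSKM minus old. Likeness was a Pearson r over 13 mice for members with a mean log2 RPKM of 0 or more.

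Alternatives were a repeated quantile normalization, centring on each mouse's median, pseudocounts of 1 and 0.1, a filter at a mean log2 RPKM of -1, fits of 2 groups, eBayes with trend and with robust, a covariate for the run of sample identifiers (609 to 621, or 641 to 643), and each mouse left out. A fit of the mice with identifiers 609 to 621 alone was added after the data were seen. Two-sided exact permutation tests of single genes over mice (difference of means, scipy 1.17.1), for the members and the 8 called pathway genes, were also added after the data were seen. Python was 3.11.15, with matplotlib 3.10.9 for the figures.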

Additional observations from a re-analysis of the deposited data

Results flagged for a closer look

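A value that lay far from the other mice of its group by Dixon's test was looked for in 51 groups of values, where chance gives about 1 in 20. Il6 was highest in young mouse 4, at a log2 RPKM of -2.52, and in old mouse 2, at -2.14, while the other mice of both groups lay between -3.20 and -3.13. Cdkn2a was lowest in old mouse 2, at -2.71, although the whole old group spanned only 0.10. Cdkn1c was highest in old-OSKM mouse 4, at 0.62, against -0.30 to -0.25 in the other 3 old-OSKM mice.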

How the results depend on the processing

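No paired analysis was possible because the replicate numbers only follow the order of the samples. The repeated quantile normalization and centring on each mouse's median changed no call of a member. Members called between old and young mice went from 0 to 1 (Cdkn1a) when only both groups were fitted, and in the fits without 1 mouse the count was 0 to 1, with 1 only without old-OSKM mouse 4. Cdkn1a in the fit of mice 609 to 621 alone was 0.81 higher in old than in young mice, without a raw p under 0.05 in limma.

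With a pseudocount of 1, a pseudocount of 0.1 and the filter on low values, all genes called were 16, 116 and 78 for old minus young, 2, 77 and 62 for old-OSKM minus old, and 8, 76 and 40 for old-OSKM minus young. Pathway genes called between old and young mice, 5 in the report, were 0, 2 and 3 in these settings, 3 with the covariate and 3 with mice 609 to 621 alone. Between old-OSKM and old mice they were 0 with a pseudocount of 1. Between old-OSKM and young mice they were 0 with a pseudocount of 1, 2 with the covariate and 0 with mice 609 to 621 alone. A pseudocount shrinks the differences of low genes and the filter tests fewer genes.

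Without 1 mouse each, pathway genes called ranged from 2 to 6 for old minus young, from 2 to 5 for old-OSKM minus old (5 without old-OSKM mouse 3) and from 1 to 5 for old-OSKM minus young (5 without old-OSKM mouse 2). The lowest count for old minus young, 2, came without young mouse 1, young mouse 4 or old mouse 1. All genes called ranged from 94 to 338 for old-OSKM minus old, with 94 without old-OSKM mouse 1, 338 without mouse 2 and 284 without mouse 3, and from 121 to 253 for old-OSKM minus young, with 253 without old-OSKM mouse 2.

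Small differences turned sign, none of them called. With the covariate and with mice 609 to 621 alone, Cdkn2a was -0.0073 and -0.039 for old minus young and Mdm2 was 0.012 and 0.040 for old-OSKM minus old. With the covariate, Cdkn2b was -0.049, Cdkn2c -0.031 and Mdm2 0.0091 for old-OSKM minus young. Without 1 mouse each, old minus young ranged from -0.014 to 0.026 for Cdkn2a, -0.30 to 0.069 for Cdkn2b, -0.086 to 0.032 for Mdm2, -0.16 to 0.053 for Lmnb1 and -0.16 to 0.20 for Il6. Old-OSKM minus old ranged from -0.046 to 0.19 for Cdkn2a, -0.10 to 0.058 for Mdm2 and -0.11 to 0.28 for Il6. Old-OSKM minus young ranged from -0.087 to 0.51 for Cdkn1a, -0.04 to 0.20 for Cdkn2a, -0.0029 to 0.31 for Cdkn2c, -0.031 to 0.14 for Trp53, -0.13 to 0.022 for Mdm2, -0.018 to 0.24 for Lmnb1, -0.064 to 0.27 for Il6 and -0.25 to 0.038 for Glb1. The cause of the sign changes was not tested.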
